A study of Mus musculus with 4 samples.

Results

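The genes described here are nuclear genes of the mitochondrial respiratory chain and ATP synthase. They were chosen by name: protein-coding genes whose symbol begins with Ndufa, Ndufb, Ndufc, Ndufs or Ndufv, with Cox4 to Cox8, with Uqc or with Atp5, or is Sdha, Sdhb, Sdhc or Sdhd. This name rule took 95 of the 41288 genes in the table, among 21873 annotated as protein-coding. Genes of these complexes with other names are left out, among them 36 assembly factors kept as a separate list. The genes were grouped by the textbook place of their products. Complex I had 43 of them, complex II 4, complex III 11, complex IV 20 and complex V 17. Atp5s and Atp5sl were put in complex V by name, though their products are not subunits of the enzyme. Of the 95, 81 encode subunits and 14 encode assembly factors or other proteins that share the name.

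RNA was sequenced from MC3T3-E1 cells, a wild-type mouse pre-osteoblastic line derived from skull, in 4 groups with 1 library each. Cells of the first group were stretched in medium that PC-3 cells had conditioned. PC-3 is a line from a human prostate cancer. The second group had the conditioned medium alone, the third had the stretching alone, and the control had neither. Stretching was a tensile strain of 2500 microstrain at 0.5 Hz for 1 h per day. The duration of either treatment is not given in the sources used here. No library had medium conditioned by other cells, so an effect of the PC-3 line and one of conditioned medium in general cannot be told apart, and a culture or sequencing batch cannot be told apart from a treatment.

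The table heads its columns with letters. The heading that joins 2 letters was read as both treatments, the letter it does not hold as the control, and 1 of its letters as strain, from the word loading in that sample's title. The conditioned-medium library followed by elimination, since its letter is not spelled out. Under the opposite reading, strain and conditioned medium would trade places throughout. The comparison of both treatments with the control does not depend on the reading and is given first.

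Library totals ran from 10007546 counts with both treatments to 10997085 in the control. Of the 7 osteoblast markers, Col1a1, Col1a2, Runx2 and Sp7 were above 1 RPKM in all 4 libraries, while Alpl, Ibsp and Bglap were below 1 RPKM in all 4. Of the 5 muscle markers, 1 reached 1 RPKM in at least 1 library. Myod1, Myog and Myh1 were at 0 counts, and the summed level of the list was 1.18 RPKM with both treatments, 1.59 with conditioned medium, 2.27 with strain and 2.74 in the control. No adipocyte or blood cell marker reached 1 RPKM. Of the 4 epithelial markers, 1 reached 1 RPKM in at least 1 library. Their summed level was 0.762 RPKM with both treatments, 0.552 with conditioned medium, 1.26 with strain and 0.890 in the control. The summed level of 4 chondrocyte markers was 20.3 RPKM with both treatments, 26.0 with conditioned medium, 30.6 with strain and 35.0 in the control. Of the 4, 2 reached 1 RPKM in at least 1 library, and most of each sum came from 1 gene other than Col2a1. The part of this list in the results was not tested. Col2a1 of that list was high with strain alone, at 0.596 RPKM with both treatments, 0.575 with conditioned medium, 2.37 with strain and 0.651 in the control.

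The respiratory chain carries electrons from NADH (complex I) and succinate (complex II) through complex III and cytochrome c to oxygen at complex IV. Complexes I, III and IV pump protons, and complex V, the ATP synthase, uses their return to make ATP. Complex II is encoded in the nucleus alone, whereas the others combine nuclear products with a few subunits encoded in the mitochondrial genome, which are not analysed here. Osteoblasts use both glycolysis and respiration, and the balance is known to shift as they mature.

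The 95 genes differed far more from each other than between libraries. Values are RPKM, which scales reads to gene length and library total. Levels compared between genes therefore depend on the annotated length. Ndufa11, with a length of 2661 bases, had 482 to 513 counts per library and a mean of 17.7 RPKM. Ndufa2, with 602 bases, had 459 to 489 counts and a mean of 73.8 RPKM. The part of annotated length in the order of genes and complexes below was not tested. Of the 95, 89 reached 1 RPKM in at least 1 library, 80 averaged at least 10 RPKM over the 4 libraries and 14 averaged at least 100 RPKM. Together they took 0.638% of all counts with both treatments, 0.649% with conditioned medium, 0.665% with strain and 0.667% in the control. Atp5b, the catalytic beta subunit of ATP synthase, was the most abundant at a mean of 685 RPKM. Complex IV followed with Cox8a at 374 RPKM and Cox6a1 at 324 RPKM. The median subunit of complex V averaged 74.5 RPKM, that of complex II 52.9 RPKM, that of complex III 50.4 RPKM, that of complex I 43.6 RPKM and that of complex IV 40.6 RPKM. The 36 complex I subunits ran from Ndufa11 at a mean of 17.7 RPKM to Ndufb10 at 127 RPKM. The 7 complex I assembly factors taken by the rule were lower, from Ndufaf6 at 2.34 RPKM to Ndufaf7 at 13.7 RPKM. All 7 averaged below each of these 36 subunits.

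**Figure D1:**
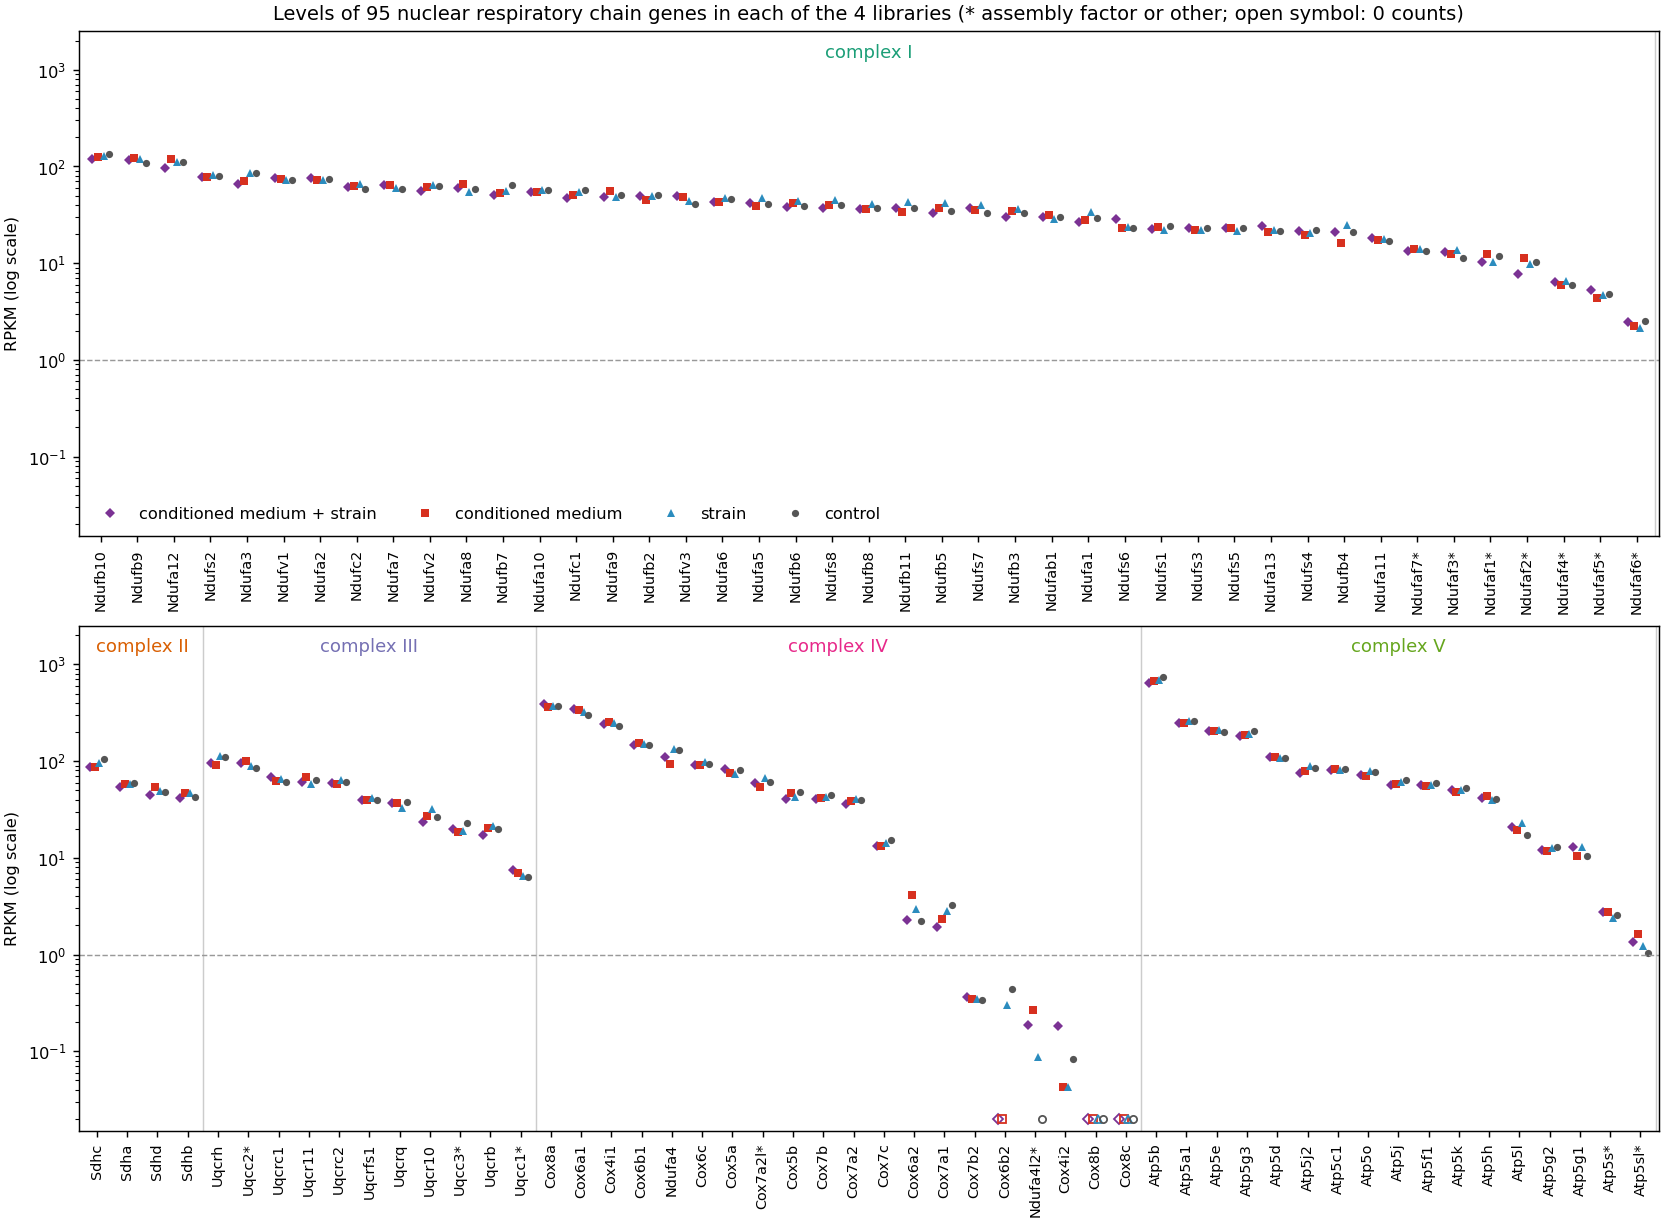
RPKM of the 95 members in each library on a log axis, by complex and in falling order of mean level; open symbols at the foot of the axis stand for 0 counts, and the dashed line marks 1 RPKM. The 4 symbols of a gene mostly lie together, while genes run from 0 to 739 RPKM, and the 6 genes under the line are all in complex IV.

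The members were short genes: the median length of the gene model was 801.5 bases for the 80 members with a mean of at least 10 RPKM, against 3147.5 bases for all 5864 protein-coding genes at that level. Their median mean count was 503 reads, against 821 reads for those 5864 genes, so their ratios between libraries carry the larger counting error. The 80 lay on 18 chromosomes. Within that error their spread over the libraries was narrow. The highest over the lowest RPKM of the 4 libraries had a median of 1.14 for the 80 members and 1.16 for the 5864 genes. It reached 1.25 in 9 of the 80 members (11.25%) and in 23.8% of the 5864 genes. Among genes with a mean of at least 100 RPKM, it reached 1.25 in 1 of 14 members, Ndufa4 at 1.44, against 26.5% of 452 protein-coding genes.

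**Figure D2:**
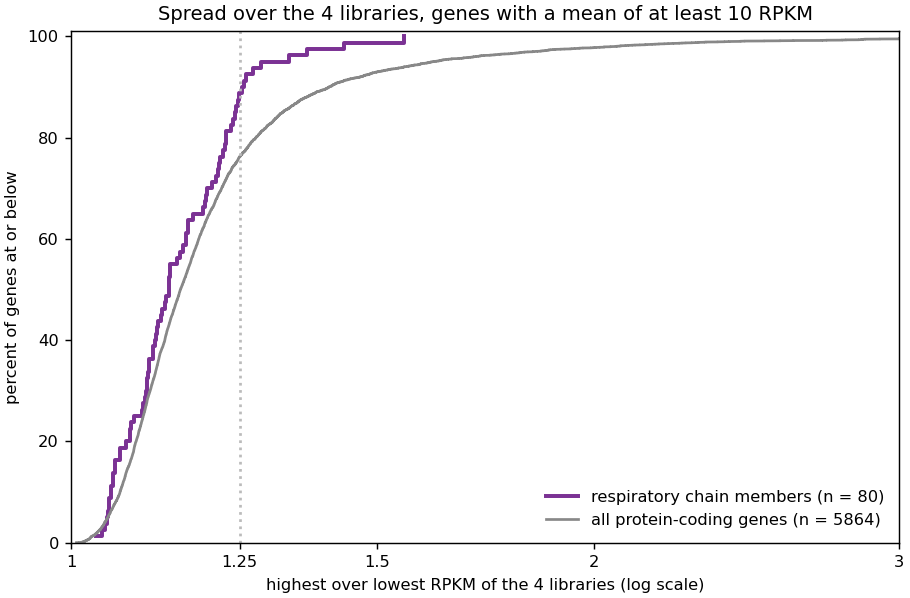
Cumulative share of genes by the ratio of their highest to their lowest RPKM over the 4 libraries (log axis), for 80 members and for 5864 protein-coding genes with a mean of at least 10 RPKM. The member curve ends at 1.55, the value of Ndufb4, and 9 members lie at or beyond the dotted line at 1.25.

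With 1 library per group no difference has a replicate check and no test was run, so every difference below is between single libraries. It is given as a difference of log2(RPKM + 1); on this scale low genes appear to change less than they do. It is also given as a ratio of count shares with a 95% interval in brackets. The interval covers the sampling of reads alone and leaves out variation between cultures. It is not adjusted for the number of genes. A gene entered a comparison with at least 1 RPKM in the higher library. A difference of at least 1 (2-fold) is called the size rule here, and one of at least 0.25 (1.19-fold) the smaller step.

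Both treatments against control. Respiratory chain transcripts stood close to the control, with 0 of 89 members past the size rule in either direction, where 1.39% of the 12674 genes compared were higher and 1.41% lower by that rule. Large differences were rare among well expressed genes in general: of the 5864 protein-coding genes with a mean of at least 10 RPKM, called the expressed genes below, 0.802% were higher and 0.409% lower by the size rule. Past the smaller step, 4 members were higher (4.49%, against 10.4% of all genes and 7.61% of the expressed genes) and 6 were lower (6.74%, against 18.9% and 13.8%), or 7 and 4 by median-of-ratios scaling. The counting interval of the ratio left out 1 for 4 members on the high side and 13 on the low side, or 4.49% and 14.6% of members. The shares were 10.5% and 24.5% of all genes and 14.2% and 31.4% of the expressed genes. The member median was -0.04 on the log2 scale and that of all genes -0.06. Of the 89, 34 were above 0 and 55 below. This split depended on how libraries were scaled: with trimmed-mean (TMM) factors 54 were above and 35 below, and the member median became 0.03 against 0.00 for all genes.

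Ndufs6, an accessory subunit of complex I, was the member with the highest log2 difference in this comparison. It had 28.5 RPKM with both treatments, 23.2 with conditioned medium, 23.5 with strain and 23.1 in the control. The library with both treatments stood alone, yet the ratio of 1.24 to the control had an interval of [0.98 to 1.56] that holds 1. Among members with a mean of at least 5 RPKM, Ndufaf2, an assembly factor of complex I, was lowest at 7.67 RPKM with both treatments, 11.3 with conditioned medium, 9.70 with strain and 10.4 in the control, and its ratio to the control was 0.741 [0.528 to 1.03]. These were counts of 62 and 92. Against the control, neither difference was thus separable from the sampling of reads. Against conditioned medium, with 97 counts, the Ndufaf2 ratio was 0.681 [0.487 to 0.946], which leaves out 1.

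Conditioned medium against control. Again 0 of 89 members passed the size rule, against 1.42% of 12691 genes on the high side and 1.27% on the low side (0.87% and 0.29% of the expressed genes). Past the smaller step 3 were higher (3.37%, against 11.7% of all and 9.28% of the expressed genes) and 7 lower (7.87%, against 16% and 10.8%). These counts were small and moved with the settings: 3 were lower under TMM and under median-of-ratios scaling, and 1 was higher at a minimum of 5 RPKM. The member median was -0.02 against -0.04 for all genes. Of the 89, 40 were above 0 and 49 below, and under TMM scaling 53 were above and 36 below. The counting interval left out 1 for 7 members on the high side and 9 on the low side (7.87% and 10.1% of members, against 12.9% and 20.7% of all and 18.1% and 26.2% of the expressed genes).

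Both treatments against strain. This comparison addresses the question in the study's title, what the cancer cells' medium does in strained osteoblasts. Past the size rule there were 0 of 89 members, against 1.39% and 1.35% of 12621 genes and 0.597% and 0.307% of the expressed genes. Past the smaller step 1 member was higher (1.12%, against 10.2% of all and 6.75% of the expressed genes) and 13 were lower (14.6%, against 15.2% and 10.2%). By median-of-ratios scaling 8 were lower. The member median was -0.06, against -0.04 for all genes, and stayed below 0 under each of 3 other scalings. Of the 89, 29 were above 0 and 60 below, or 38 and 51 by median-of-ratios scaling. Complex I held 7 of the 13 (Ndufa1, Ndufa3, Ndufb3, Ndufb4, Ndufb5, Ndufs8 and Ndufaf2), complex III held Uqcr10, Uqcrb and Uqcrh, and complex IV held Ndufa4, Cox6a2 and Cox7a1. The counting interval left out 1 for 3 members on the high side and 16 on the low side (3.37% and 18% of members, against 10.7% and 18.8% of all and 14% and 24.7% of the expressed genes).

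**Figure D3:**
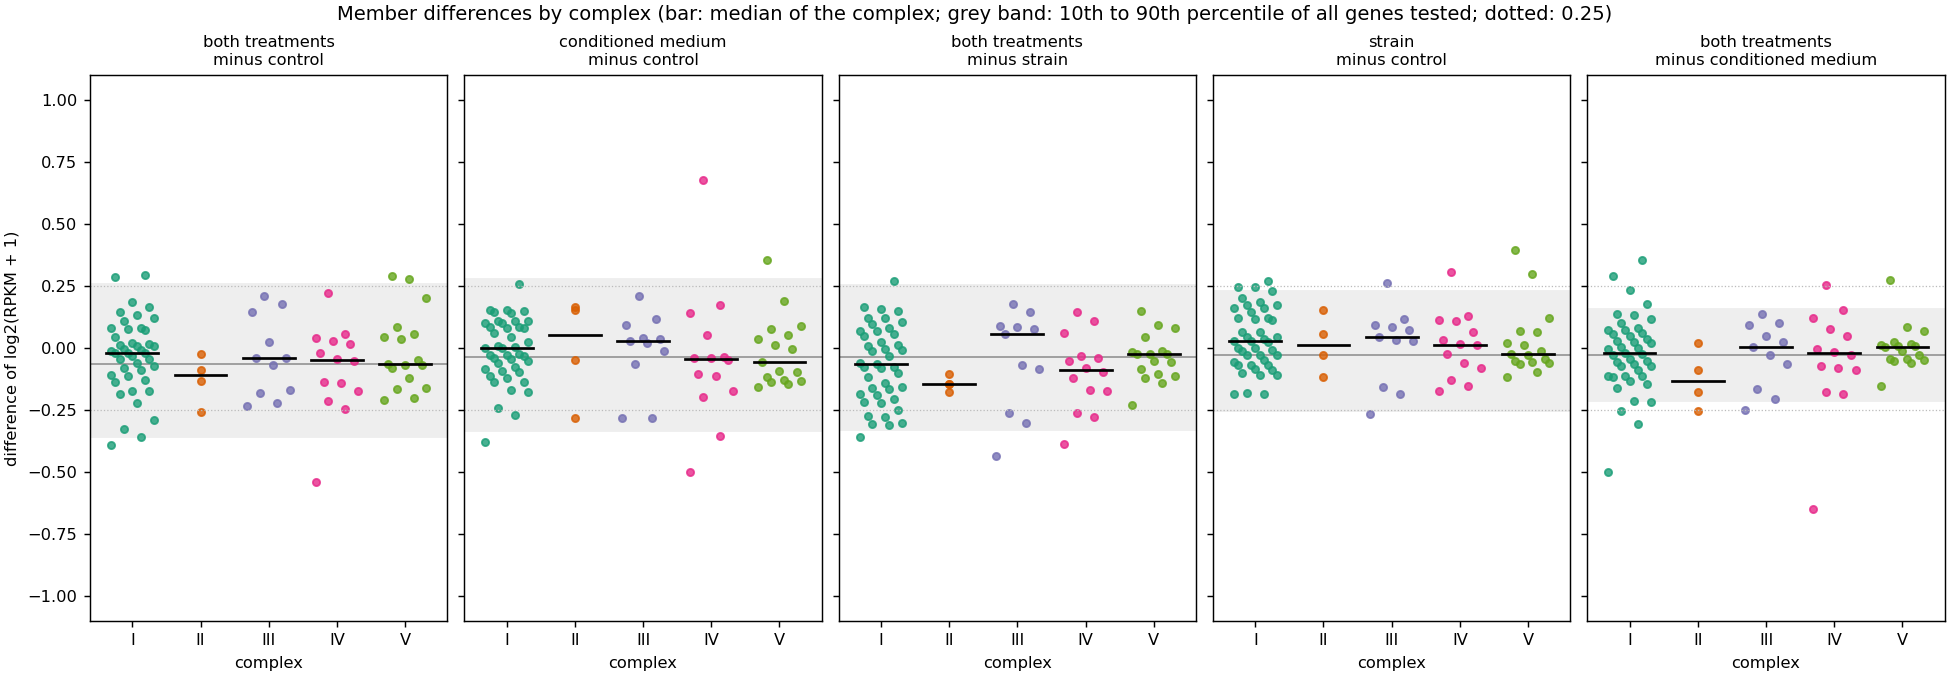
Difference of log2(RPKM + 1) for the members that reached 1 RPKM in the higher library, by complex, in 5 comparisons; black bars are complex medians, the grey line and band are the median and the 10th to 90th percentiles of all genes, and dotted lines mark 0.25. Most members lie inside the band, and none reaches 1 in either direction.

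The conditioned-medium comparisons with and without strain have no library in common, so members that differed alike in both can be counted. The interval left out 1 on the low side in both for 7 of 89 members (7.87%, against 9.93% of 12979 genes and 15.3% of the expressed genes) and on the high side in both for 2 members (2.25%, against 6.2% and 9.81%). Neither share exceeded that of all genes or of the expressed genes. The 7 lower members were Ndufa4, Uqcrh, Sdhc, Ndufa3, Cox7a2l, Atp5b and Atp5a1, and the 2 higher members were Cox6a1 and Ndufv3. Under TMM scaling 5 of the 7 remained, without Ndufa3 and Atp5a1, and with the median-of-ratios scaling 3 of the 7 lower members remained, Ndufa4, Uqcrh and Atp5b, as did both higher ones. By rank order alone, without regard to counting error, 34 members (38.2%, against 31.4% of all and 35% of the expressed genes) were lower in both libraries with conditioned medium than in both without, and 12 (13.5%, against 19.2% and 21.7%) were higher.

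Ndufa4 (chr6:11900373-11907446, minus strand, gene number 17992) was the clearest of these. It was named as a complex I subunit and is now placed in complex IV. It had 111 RPKM with both treatments and 92.9 with conditioned medium, against 133 with strain and 132 in the control. Both libraries with conditioned medium were below both without it, and the strained library alone stood level with the control. The ratio was 0.705 [0.627 to 0.792] for conditioned medium over control and 0.834 [0.744 to 0.934] for both treatments over strain. Between the libraries with conditioned medium, that with strain was higher, at a ratio of 1.20 [1.06 to 1.35].

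The protein NMES1, encoded by AA467197 in the mouse, is known to take the place of NDUFA4 in complex IV, so this gene was looked up after the values of Ndufa4 had been seen. It had 119 counts with both treatments and 145 with conditioned medium, against 133 with strain and 81 in the control. The ratio was 1.85 [1.40 to 2.45] for conditioned medium over control and 0.959 [0.742 to 1.24] for both treatments over strain. Its level was therefore low in the control alone, unlike that of Ndufa4. Ndufa4l2, a paralog of Ndufa4 known to be induced by hypoxia, had 2, 3, 1 and 0 counts in the libraries with both treatments, conditioned medium, strain and control. That is at most 3 counts per library, the floor used here, and its locus lies opposite the expressed gene Shmt2.

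Other complex IV genes divided into a few abundant isoforms and several near 0. Cox6a1, the ubiquitous isoform of subunit 6a (chr5:115345654-115348955, minus strand), had 346 RPKM with both treatments, 335 with conditioned medium, 320.0 with strain and 296 in the control. All 3 treated libraries were above the control. The ratio was 1.17 [1.09 to 1.25] for both treatments over control, 1.13 [1.06 to 1.21] for conditioned medium over control, 1.08 [1.01 to 1.15] for both treatments over strain and 1.08 [1.01 to 1.15] for strain over control. Cox8a, the most abundant gene of the complex, had 386, 365, 370 and 376 RPKM with both treatments, conditioned medium, strain and in the control. Its interval held 1 in all 5 comparisons, as did those of Cox5a and Cox5b, which lie on the matrix side of the complex. Cox5a had 82.5, 75.7, 74.4 and 81.5 RPKM and Cox5b had 40.9, 46.3, 42.1 and 47.6 RPKM, both in that order of libraries. Cox4i1, the ubiquitous form of the largest nuclear subunit, had 241, 255, 249 and 231 RPKM in the same order again, with a ratio of 1.10 [1.04 to 1.17] for conditioned medium over control. Cox7a2l, also called SCAF1, which joins complexes III and IV into supercomplexes, had 59.7 RPKM with both treatments and 53.5 with conditioned medium, against 67.5 with strain and 61.5 in the control.

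The isoforms known from heart and muscle, testis or lung made up little of complex IV. Cox8b and Cox8c were at 0 counts in every library, and Cox6b2, Cox7b2 and Cox4i2 had at most 4 counts. Cox7a1, the heart and muscle isoform of subunit 7a, had 1.91 RPKM with both treatments, 2.31 with conditioned medium, 2.80 with strain and 3.23 in the control, on 7, 9, 11 and 13 counts. Its share of the summed RPKM of Cox7a1 and Cox7a2 was 5.02% with both treatments, 5.64% with conditioned medium, 6.43% with strain and 7.49% in the control. The ratio for both treatments over control was 0.592 [0.200 to 1.60], so no difference was detectable at this depth. The summed muscle marker list given above, where 1 of 5 genes reached 1 RPKM, ran in the same order of libraries, and its part in this result was not tested. Cox6a2, the heart and muscle isoform of subunit 6a, took at most 1.22% of the summed RPKM of its pair.

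Complex III had its clearest member in Uqcrh, the hinge protein that assists the docking of cytochrome c (chr4:116066965-116075070, minus strand). It had 94.6 RPKM with both treatments and 91.4 with conditioned medium, against 114 with strain and 111 in the control. Both libraries with conditioned medium were below both without. The ratio was 0.820 [0.731 to 0.921] for conditioned medium over control and 0.833 [0.741 to 0.936] for both treatments over strain. A pseudogene on the opposite strand overlaps it at a mean of 6.70 RPKM, and whether counting used strand is not given in the sources used here.

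The core protein Uqcrc1 had 68.2 RPKM with both treatments, 62.0 with conditioned medium, 65.6 with strain and 60.3 in the control, and both strained libraries were above both unstrained ones. The Rieske iron-sulfur protein Uqcrfs1, which passes electrons on from ubiquinol, had 40.0, 39.9, 42.0 and 39.3 RPKM with both treatments, conditioned medium, strain and in the control. Its interval held 1 in all 5 comparisons. Of the assembly factors, Uqcc2 had 94.7 RPKM with both treatments and 99.1 with conditioned medium, against 89.9 with strain and 85.5 in the control. Uqcc1, much less abundant at a mean of 6.86 RPKM, had 452 and 448 counts with both treatments and with conditioned medium, against 421 and 421 with strain and in the control, with a ratio of 1.18 [1.03 to 1.35] for both treatments over control. Uqcr10, a small accessory subunit, had 23.2 RPKM with both treatments, 26.9 with conditioned medium, 31.7 with strain and 26.2 in the control. Its ratio of 0.732 [0.586 to 0.912] for both treatments over strain was the lowest of members with a mean of at least 5 RPKM in that comparison, and the ratio for conditioned medium over control was 1.03 [0.826 to 1.27].

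Complex II is also succinate dehydrogenase of the tricarboxylic acid cycle. Its membrane anchor Sdhc (chr1:171129157-171150603, minus strand) had 87.4 RPKM with both treatments, 86.0 with conditioned medium, 96.6 with strain and 105 in the control. The treated libraries were all below the control, with ratios of 0.835 [0.769 to 0.906], 0.822 [0.758 to 0.891] and 0.923 [0.853 to 0.998] for both treatments, conditioned medium and strain. The catalytic flavoprotein Sdha had 53.9, 57.3, 58.1 and 59.2 RPKM with both treatments, conditioned medium, strain and in the control. The iron-sulfur subunit Sdhb had 41.4, 47.0, 47.0 and 42.1 RPKM in the same order. The second anchor, Sdhd, had 44.6, 53.4, 49.4 and 47.5 RPKM in the same order. All 4 genes were lower with both treatments than with strain, and stayed so under TMM scaling. By the deposited values 7335 of all 12621 genes were also below 0 in that comparison. Their summed count gave a ratio of 0.911 [0.872 to 0.953] in that comparison and 0.900 [0.861 to 0.941] for both treatments over control. Against the control the median of the 4 was -0.11, with 4 below 0, and became -0.04 under TMM scaling, with 3 below 0 and Sdhb above. In conditioned medium alone they did not go together: Sdhd had a ratio to control of 1.12 [1.01 to 1.25].

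In complex I, Ndufv3, an accessory subunit of the NADH-oxidising arm (chr17:31520115-31531326, plus strand), had 49.8 RPKM with both treatments and 48.9 with conditioned medium, against 44.3 with strain and 40.6 in the control. Its ratio was 1.23 [1.11 to 1.36] for both treatments over control, 1.20 [1.09 to 1.33] for conditioned medium over control and 1.12 [1.02 to 1.24] for both treatments over strain. Of the other subunits of that arm, Ndufv1, which binds NADH, had 76.4, 75.03, 72.2 and 72.6 RPKM with both treatments, conditioned medium, strain and in the control. Ndufs1, its largest iron-sulfur subunit, had 22.5, 23.6, 22.1 and 24.0 RPKM in the same order. The interval of both Ndufv1 and Ndufs1 held 1 in all 5 comparisons. Ndufv2 had 55.5 RPKM with both treatments, below 61.5, 64.6 and 62.7 with conditioned medium, strain and in the control.

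Ndufa3, a small accessory subunit, had 65.9 RPKM with both treatments and 71.5 with conditioned medium, against 84.7 with strain and 84.7 in the control. Ndufb7, another, had 51.0 and 53.0 RPKM with both treatments and with conditioned medium, against 56.3 and 64.1 with strain and in the control. Ndufb4 varied most of the 80 members, with 20.9 RPKM with both treatments, 16.1 with conditioned medium, 25.1 with strain and 21.2 in the control. Its counts were 95, 78, 122 and 106, and its interval held 1 in all 5 comparisons. Ndufa12, a late-assembled accessory subunit, was low with both treatments alone, at 96.0 RPKM, where the libraries with conditioned medium, strain and neither had 119, 112 and 112 RPKM. The ratio was 0.807 [0.721 to 0.904] for both treatments over conditioned medium and 0.856 [0.763 to 0.959] over control. By the deposited library totals the complex as a whole was level, with a summed count ratio of 0.987 [0.967 to 1.01] for both treatments over control and 1.01 [0.990 to 1.03] for conditioned medium over control. This depended on scaling. For both treatments over control 18 of 43 genes were above 0 and 25 below, or 28 and 15 under TMM scaling. The median log2 difference was -0.02 there and became 0.05 under TMM scaling. For conditioned medium over control 20 were above 0 and 23 below, or 28 and 15 under TMM scaling.

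In complex V, Atp5b (chr10:128083307-128090388, plus strand), with 12039 to 15280 counts the best counted member, had 640.2 RPKM with both treatments, 668 with conditioned medium, 692 with strain and 739 in the control. All treated libraries were below the control, with ratios of 0.866 [0.845 to 0.887], 0.903 [0.882 to 0.925] and 0.936 [0.915 to 0.958] for both treatments, conditioned medium and strain. The narrow intervals rest on depth, and the differences themselves were under the smaller step. Atp5a1, the partner alpha subunit, had 248, 249.9, 258 and 260.05 RPKM with both treatments, conditioned medium, strain and in the control. Atp5c1, the gamma shaft of the rotor, had 80.0, 82.6, 81.4 and 82.7 RPKM in the same order and was the steadiest of the 80 members, at a highest over lowest ratio of 1.03. The summed complex V count had a ratio of 0.917 [0.902 to 0.931] for both treatments over control and 0.938 [0.923 to 0.953] for conditioned medium over control. Atp5b alone gave 12039 of the 26971 complex V counts with both treatments and 15280 of 32337 in the control. The median log2 difference of the 17 genes was -0.07 and -0.06 in these comparisons, against -0.06 and -0.04 for all genes, and became 0.00 for both treatments over control under TMM scaling. Atp5h, the d subunit of the peripheral stalk, had 41.9, 43.4, 39.2 and 40.8 RPKM with both treatments, conditioned medium, strain and in the control. Atp5j2, the small membrane subunit f, had 75.4, 78.1, 88.6 and 84.6 RPKM in the same order, with a ratio of 0.851 [0.739 to 0.980] for both treatments over strain.

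Atp5g1, Atp5g2 and Atp5g3 encode the same mature protein of the c-ring from different genes. Atp5g3 supplied 87.8% of their summed RPKM with both treatments, 89.3% with conditioned medium, 88.2% with strain and 89.9% in the control. Atp5g1, at a mean of 11.7 RPKM, had 112 counts with both treatments and 121 with strain, against 97 with conditioned medium and 99 in the control. It was past the smaller step in both strain comparisons, though its interval held 1 in each (1.23 [0.929 to 1.63] for both treatments over conditioned medium and 1.25 [0.953 to 1.65] for strain over control). Its share of the summed counts of the 3 genes was 7.50% [6.21 to 8.95] with both treatments, 6.01% [4.90 to 7.29] with conditioned medium, 7.16% [5.97 to 8.49] with strain and 5.38% [4.40 to 6.52] in the control, by exact Clopper-Pearson intervals. These intervals overlap.

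**Figure D4:**
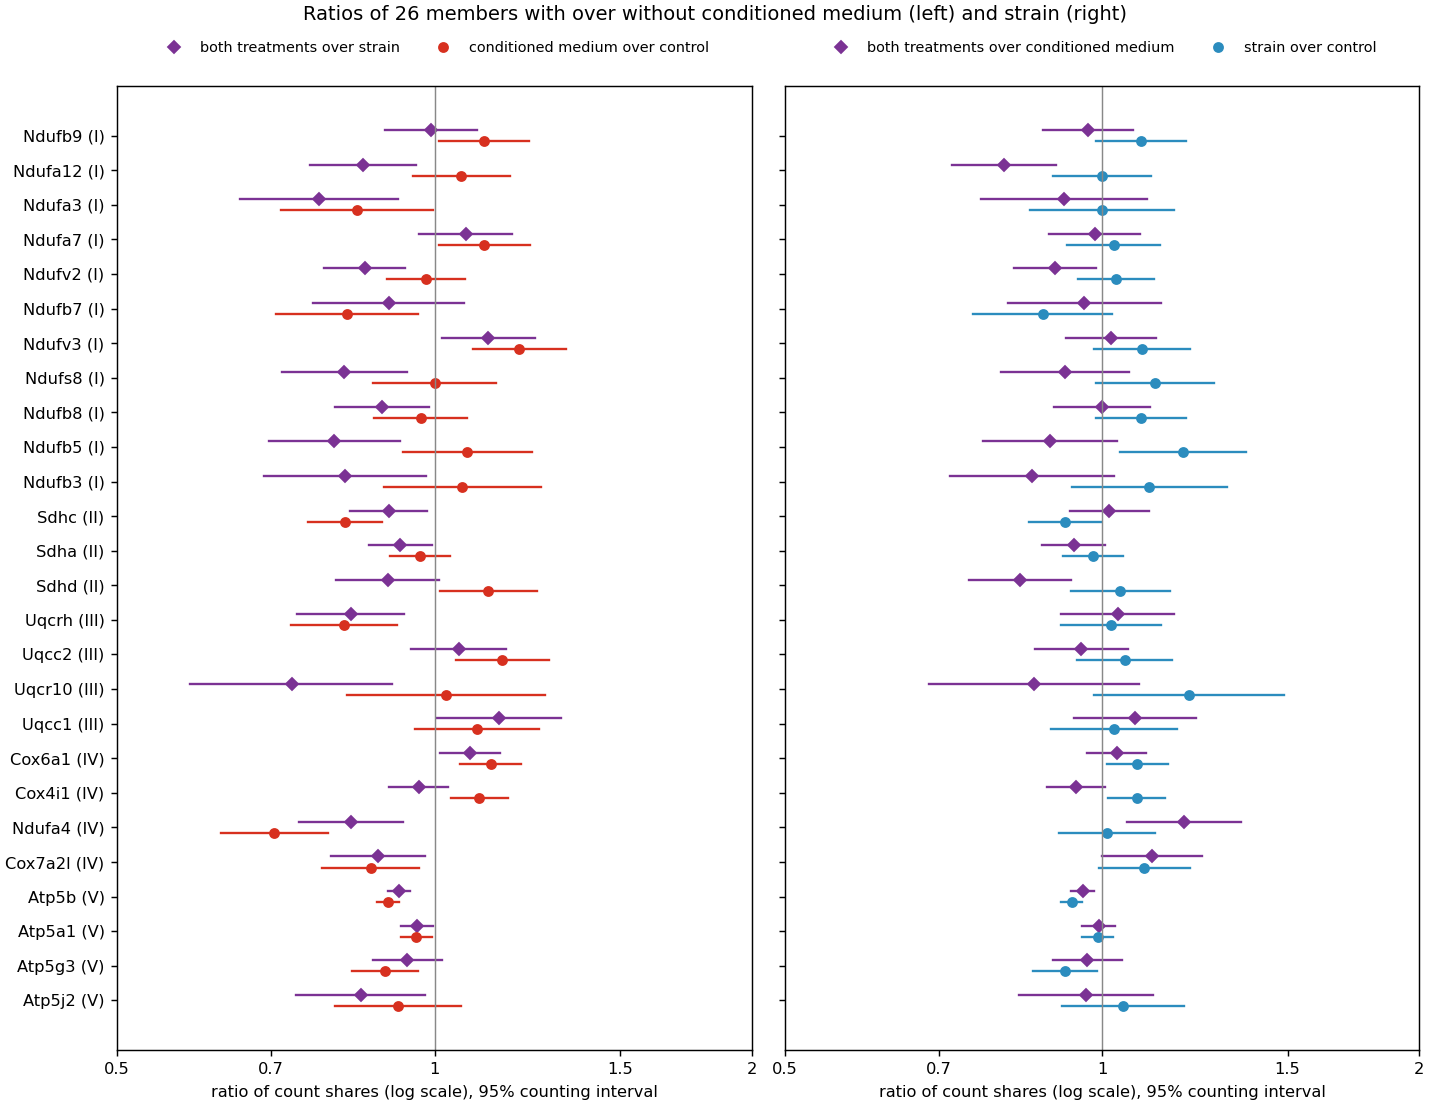
Ratios of count shares with 95% counting intervals (log axis) for the 26 members whose interval leaves out 1 for conditioned medium over control or for both treatments over strain, with the complex in brackets. On the left, the whole intervals of Ndufa4, Uqcrh, Sdhc, Ndufa3, Cox7a2l, Atp5b and Atp5a1 lie below 1 in both comparisons. Those of Cox6a1 and Ndufv3 lie above 1 in both.

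Strain against control. Large differences were rare among the members and among the expressed genes alike. Past the size rule there were 0 of 89 members, against 0.819% of 12699 genes on the high side and 1.09% on the low side (0.0512% and 0.0682% of the expressed genes). Past the smaller step 5 were higher (5.62%, against 9% of all and 4.84% of the expressed genes) and 1 was lower (1.12%, against 10.3% and 4.43%). The interval left out 1 for 6 members on the high side and 4 on the low side (6.74% and 4.49%, against 9.18% and 15.4% of all and 11.7% and 20% of the expressed genes). The 5 were Atp5l, Cox6a2, Atp5g1, Ndufs7 and Uqcr10, and the lower one was the assembly factor Uqcc3, with 18.9 RPKM with strain and 22.9 in the control. Under each of 3 other scalings 8 were higher and 0 lower. The member median was 0.02 against -0.03 for all genes, with 50 members above 0 and 39 below, or 61 and 28 under TMM scaling. Ndufs7, a core subunit beside the ubiquinone site, had 39.6 RPKM with strain and 32.7 in the control, a ratio of 1.21 [1.06 to 1.39]. Atp5l, the g subunit of ATP synthase, had 22.7 RPKM with strain and 17.0 in the control, a ratio of 1.34 [1.02 to 1.76]. In conditioned medium, the library with strain had 36.9 RPKM of Ndufs7 and 20.8 of Atp5l, against 35.4 and 19.6 without strain, and both intervals held 1.

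Both treatments against conditioned medium. Past the size rule there were 0 of 89 members, against 0.907% and 1.06% of 12575 genes and 0% and 0.0853% of the expressed genes. Past the smaller step 4 were higher (4.49%, against 5.42% of all and 0.972% of the expressed genes) and 6 lower (6.74%, against 7.61% and 2.39%). Under TMM scaling 5 were higher and 3 lower. The interval left out 1 for 4 and 6 members (4.49% and 6.74%, against 3.46% and 9.84% of all and 3.55% and 13.9% of the expressed genes). The member median was -0.02 and that of all genes -0.03, and under TMM scaling the member median was 0.01. Of the 89, 41 were above 0 and 48 below, or 51 and 38 by median-of-ratios scaling. By rank order alone, 12 members (13.5%, against 8.74% of all and 7.2% of the expressed genes) were higher in both strained libraries than in both unstrained ones, and 8 (8.99%, against 18% of both) were lower. Past the smaller step the higher members were Ndufb4, Ndufs6, Atp5g1 and Ndufa4, and the lower ones Cox6a2, Ndufaf2, Ndufa12, Ndufaf1, Sdhd and Uqcrb. The strain comparisons in conditioned and in ordinary medium share no library. The interval left out 1 in both of them for Uqcrc1 on the high side (1.12% of members, against 0.848% of all and 1.21% of the expressed genes) and for Atp5b on the low side (1.12%, against 2.63% and 4.4%). The low-side call of Atp5b was lost by median-of-ratios scaling and by the total without top genes, and Cox7a2l joined Uqcrc1 on the high side under each of 3 other scalings.

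Across members with a mean of at least 10 RPKM, the response to conditioned medium in strained cells and that in unstrained cells correlated at r = 0.32 (Pearson, n = 80 genes, Spearman 0.31), against r = 0.80 (Spearman 0.60) over the 5864 protein-coding genes. For strain, with and without conditioned medium, the members gave r = 0.17 (Spearman 0.14) and the 5864 genes r = 0.23 (Spearman 0.13). These are descriptions across genes, which are not replicates, and the counting interval of the ratio held 1 for most members in each comparison. The members also spanned less: the 90th percentile of highest over lowest RPKM was 1.25 for them and 1.41 for the 5864 genes. The part of this narrower range in the lower r was not tested.

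Genes of other mitochondrial lists are given beside the members. These lists were chosen with earlier results of these data known, so their values are descriptions and not a test. Of the 12 genes in the hypoxia-linked list, 11 reached 1 RPKM in at least 1 library. Of 11 hypoxia-linked mitochondrial genes compared, 10 were above 0 for conditioned medium over control, with a median of 0.51 on the log2 scale. Of all genes in that comparison, 5445 of 12691 were above 0, with a median of -0.04. The list medians were 0.46 for both treatments over control and 0.26 for both treatments over strain, each with 9 of 11 above 0, against 4679 of 12674 and 5286 of 12621 genes. These genes are known targets or partners of the hypoxia response. Bnip3, a mitophagy receptor, was the 1 of the 11 past the size rule for conditioned medium over control, where 1.42% of all and 0.87% of the expressed genes were higher by that rule. It was also past it for both treatments over control and over strain (1.39% of all genes each, 0.802% and 0.597% of the expressed genes), with 48.0 RPKM with both treatments and 52.4 with conditioned medium, against 19.7 with strain and 20.2 in the control. The genes Pdk1 and Higd1a were picked after their values were seen. Pdk1, the kinase that holds back pyruvate dehydrogenase, had 15.2 and 17.1 RPKM with both treatments and with conditioned medium, against 8.31 and 8.79 with strain and in the control. Higd1a, a small protein of the inner membrane that binds complexes III and IV, had 21.0 and 20.4 RPKM with both treatments and with conditioned medium, against 12.5 and 14.03 with strain and in the control. The median of 18 genes of the tricarboxylic acid cycle was 0.05 for conditioned medium over control, that of 21 genes of electron carriers and ATP/ADP exchange was 0.01, that of 35 assembly factors outside the name rule was -0.01 and that of 15 biogenesis regulators was -0.02. Those medians, like the member median, lay within 0.1 of that of all genes.

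Promoters were searched in the 250 bases before the start in RefSeq annotation of GRCm38.p6, where 79 of the 95 members had an entry. The motif of NRF-1, a factor known to act on many respiratory chain genes, was written as GCGCA, then any base, then GCGC, and matched on either strand like the others. It was in 14 of the 79 (17.7%), against 3.86% of 27025 promoters and 10.1% of the 4730 promoters of protein-coding genes with a mean of at least 10 RPKM. The ETS letters CCGGAAG, read by GABP, were in 12 (15.2%), against 7.05% and 15.9%. The letters AAGGTCA, a site of orphan nuclear receptors, were in 6 (7.59%), against 4.05% and 2.30%. YY1, written AANATGGC, was in 5 (6.33%), against 3.93% and 4.80%. The hypoxia element cores ACGTG and GCGTG were in 18 and 34 (22.8% and 43.0%), against 16.6% and 28.2% of all promoters and 23.7% and 49.0% of the expressed ones.

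The promoters below are those of the members with the highest and lowest difference for both treatments over control at a mean of at least 5 RPKM (Ndufs6 and Ndufaf2), of Ndufa4 and Cox6a1, which lay lower and higher in both conditioned-medium comparisons, and of Ndufb4, which varied most. All 5 genes are on the minus strand, and the sequences are read 5′ to 3′ toward the start, at chr13:73328483-73328732, chr13:108158626-108158875, chr6:11907451-11907700, chr5:115348959-115349208 and chr16:37654369-37654618 in GRCm38.p6. Capitals mark matches to the NRF-1 letters and, nearest the start in Cox6a1, to the ETS letters on the other strand.
Ndufs6: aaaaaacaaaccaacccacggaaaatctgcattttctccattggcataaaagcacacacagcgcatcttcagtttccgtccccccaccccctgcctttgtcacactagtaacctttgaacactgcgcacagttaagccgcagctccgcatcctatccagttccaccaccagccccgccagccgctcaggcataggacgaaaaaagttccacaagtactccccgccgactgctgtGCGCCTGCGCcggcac
Ndufaf2: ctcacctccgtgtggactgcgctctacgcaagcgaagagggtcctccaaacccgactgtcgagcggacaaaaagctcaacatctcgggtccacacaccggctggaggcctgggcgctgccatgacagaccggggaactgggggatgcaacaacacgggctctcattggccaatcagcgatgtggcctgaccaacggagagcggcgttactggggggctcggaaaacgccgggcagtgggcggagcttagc
Ndufa4: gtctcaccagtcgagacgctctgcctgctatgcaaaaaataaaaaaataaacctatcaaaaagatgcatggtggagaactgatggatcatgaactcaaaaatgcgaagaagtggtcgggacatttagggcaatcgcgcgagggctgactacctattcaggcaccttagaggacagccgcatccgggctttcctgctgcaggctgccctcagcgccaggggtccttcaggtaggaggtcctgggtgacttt
Cox6a1: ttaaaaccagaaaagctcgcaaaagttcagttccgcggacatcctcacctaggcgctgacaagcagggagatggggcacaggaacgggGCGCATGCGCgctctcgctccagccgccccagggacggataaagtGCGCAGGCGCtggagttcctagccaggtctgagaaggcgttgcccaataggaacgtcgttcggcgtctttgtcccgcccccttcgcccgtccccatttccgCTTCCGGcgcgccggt
Ndufb4: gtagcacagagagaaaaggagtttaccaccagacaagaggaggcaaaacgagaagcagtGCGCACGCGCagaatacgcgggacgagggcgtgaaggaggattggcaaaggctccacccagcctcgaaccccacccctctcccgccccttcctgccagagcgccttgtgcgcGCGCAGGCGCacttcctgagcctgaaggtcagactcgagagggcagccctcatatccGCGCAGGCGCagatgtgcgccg
Ndufb4 holds 3 NRF-1 matches and Cox6a1 holds 2, while Ndufa4 and Ndufaf2 hold none in this window. A match is a string of letters and does not show binding, and members with matches lay on both sides of 0 in the comparisons above.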

How the data were processed

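Members and lists were chosen with earlier results of these data known. The authors deposited 1 table with whole-number read counts and RPKM per gene for each of the 4 libraries, per the file headers. Reads were aligned with HISAT2 and the build is named as mm9, per the submitters' processing notes. The sources used here give no counting tool or strand setting. Positions were read as GRCm38, since 67 of the 95 members had the same chromosome and start in RefSeq GRCm38.p6, though the notes name mm9. The deposited RPKM were recomputed from the counts and differed by a relative 5.05e-06 at most. The kit was directional, and 13 members overlap an opposite-strand gene at 1 RPKM or more.

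Differences were of log2(RPKM + 1), with a minimum of 1 RPKM in the higher library. Ratios of count shares carry 95% intervals from the exact Clopper-Pearson interval. They cover counting error only, and they are too narrow where reads are PCR copies of the same molecule. The floor of 3 counts corresponds to 0.273 to 0.300 RPKM for a length of 1 kb. Counting error shrinks with depth, so the best counted genes have the narrowest intervals. No p-value was computed. Alternatives were other scalings (TMM from edgeR 4.0.16, median-of-ratios, a total without mitochondrial and the 20 top genes), pseudocount, minimum, background and subunits only. Named were the 3 highest and 3 lowest members with a mean of at least 5 RPKM in each comparison, the extremes and the 2 most abundant members of each complex, isoform pairs and complex II. The rule for naming also covered list genes past the size rule. Other members, such as Ndufs1, Ndufv1, Uqcrfs1 and Atp5c1, and the counts over 2 comparisons were added after values were seen. Scripts were tested on simulated data. Python 3.11.15, scipy 1.17.1 and R 4.3.3 were used.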

Additional observations from a re-analysis of the deposited data

Results flagged for a closer look

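Cox6a2, the heart and muscle isoform of subunit 6a, differed in opposite directions by background, past 0.25 on the log2(RPKM + 1) scale each time. It had 2.27 RPKM with both treatments, 4.13 with conditioned medium, 2.97 with strain and 2.21 in the control, on 15, 29, 21 and 16 counts. The strain difference was -0.65 in conditioned medium and 0.31 in ordinary medium. The conditioned-medium difference was -0.28 in strained cells and 0.68 in unstrained cells. The difference between these was not tested, and the counting interval of each of the 4 ratios holds 1.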

How the results depend on the processing

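No paired analysis was possible because each group has 1 library. Over the alternatives run, 0 members passed the size rule in any comparison. Without a minimum, where genes at 0 in both libraries bring the median of all genes to 0, the member median relative to all genes changed sign in 3 comparisons, to -0.0313 for both treatments against control, -0.0108 for conditioned medium against control and -0.0027 for both treatments against conditioned medium. It was then -0.0549 for both treatments against strain and 0.0129 for strain against control. Under the other alternatives it kept its sign. For both treatments against strain it was -0.0446 with subunits only. Scaling moved the median of all genes by less than 0.1. Counts past the smaller step changed by more than 1.5 times as follows. For both treatments against control, 7 were higher by median-of-ratios. For conditioned medium against control, 3 were lower by TMM and by median-of-ratios, and 1 was higher at a minimum of 5 RPKM. For both treatments against strain, 8 were lower by median-of-ratios. For strain against control, 8 were higher and 0 lower by TMM, median-of-ratios and the total without top genes, and 0 were lower with subunits only. For both treatments against conditioned medium, 3 were lower under the same 3 scalings. Members whose interval left out 1 in both conditioned-medium comparisons on the low side numbered 3 by median-of-ratios. For strain these were 2 on the high side under all 3 scalings, and 0 on the low side by median-of-ratios and the total without top genes. Rescaling the libraries for these counts over 2 comparisons was chosen after seeing the data. Depth limits the genes with few reads: of the members with under 100 counts in a library, the interval left out 1 for Atp5l (125 and 96 counts, strain and control) and Ndufaf2 (62 and 97 counts, both treatments and conditioned medium).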
